A study of Mus musculus with 6 samples.

Results

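The genes described here are the 3 chains of complement component C1q (C1qa, C1qb and C1qc) and 6 genes that recur in descriptions of lipid-associated macrophages (Apoe, Trem2, Spp1, Gpnmb, Cd9 and Lpcat2). They were chosen by name, with earlier results of these data known, and all 9 were found among the 55487 genes of the count table. All 9 also passed the filter on low counts, which left 15114 genes tested. The libraries came from subcutaneous tumors of CT26.WT, a colon carcinoma cell line of BALB/c origin, grown in immunocompetent wild-type BALB/c mice. Bulk RNA-seq had been run on 3 tumors of a control group and 3 tumors of a group labelled IFN-gamma stimulation, so one comparison was possible, IFN-γ against control. The mice were male and were bought at an age of 4 weeks. Tail vein injections of 100 µL were given every 48 h and held IFN-γ at 100 ng/ml for one group and PBS alone for the controls. The labels number the tumors 1 to 3 within each group but do not say that each came from a separate mouse, so p-values measure the spread between these 6 samples only. The study asked what IFN-γ does to the immune setting of colorectal tumors, and the macrophage genes bear on that question.

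C1q is the recognition unit of the classical complement pathway. Its chains assemble into one secreted protein, made mostly by tissue macrophages and not by hepatocytes, that tags immune complexes and dying cells. Lipid-associated macrophages are a state, described in adipose tissue, atherosclerotic plaque and tumors, in which macrophages take up lipid and cell debris and express the receptor Trem2 together with genes of lipid handling and the lysosome. In tumors, macrophages rich in C1q and macrophages rich in Spp1 are often set apart as different populations. Several of the genes are not particular to macrophages: Spp1, Cd9 and Apoe are also made by tumor cells and other stromal cells, and a bulk tumor holds all of them. In bulk tumors, more cells of a type and more RNA per cell cannot be told apart.

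Each library held 15759300 to 17559680 counts, so 3 counts corresponded to at most 0.187 CPM (CPM is a gene's count scaled to a common library size, here with totals adjusted by the trimmed mean of M-values), well under the level of all 9 genes. Log2 CPM values of any pair of tumors correlated at 0.980 to 0.993 across genes. IFN-γ tumor 3 differed from the other 2 IFN-γ tumors in the response genes of the cytokine itself: the summed level of 15 such genes was 1452, 2419 and 1980.5 CPM in the control tumors and 3937, 4095 and 1867 CPM in the IFN-γ tumors, so that tumor 3 lay inside the control range. The same tumor had the highest level of keratinocyte markers: 8 epidermal markers summed to 13.8, 5.69 and 4.62 CPM in the control tumors and 4.58, 3.42 and 75.7 CPM in the IFN-γ tumors, with Flg2 at 0 in all 6 tumors. The part of these markers in the results was not tested, and values without this tumor are given beside those of all 6. Without it, 12 of the 15 response genes were called higher by edgeR, beside 2.46% of all genes tested in those 5 tumors. With all 6 tumors, 0 of the 15 were called. Tumor 3 stands out by these same genes, so the 12 calls are no independent evidence about it. Epithelial markers were low throughout, 7 genes summing to 13.2 to 23.0 CPM in the control tumors and 9.51 to 13.5 CPM in the IFN-γ tumors, and 3 of them passed the filter. Their low level does not show how much of each tumor was CT26.WT cells. Monocyte markers, a list of 6, summed to 391, 458 and 491 CPM in the control tumors and 637, 711 and 401 CPM in the IFN-γ tumors, with IFN-γ tumor 3 again in the control range.

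The 3 C1q chains and Apoe, Trem2 and Lpcat2 had higher mean levels in the IFN-γ group, Spp1 had a lower one, and Gpnmb and Cd9 lay within the spread between tumors. In edgeR's quasi-likelihood test over all 6 tumors, with Benjamini-Hochberg adjustment over all genes tested, 0 of the 9 genes passed an adjusted p of 0.05 in either direction, where the background was 0.0794% of genes called higher and 0.0331% called lower. At an unadjusted p under 0.05, 6 of the 9 were higher and 0 lower, beside 5.74% of all genes tested higher and 4.44% lower (10.2% in either direction, the figure to set beside the unadjusted counts of every gene list), and the smallest adjusted p among the 9 was 0.222. DESeq2 called 3 of the 9 higher (C1qa, C1qb and Apoe), with 0.936% of its genes called higher and 0.532% lower. Using no filter on low counts, edgeR called the 3 C1q chains higher, with 0.558% of genes called higher. Calls by limma-voom held 0 of the 9, with 0.0662% of genes called higher and 0.0198% lower. Without IFN-γ tumor 3, edgeR called the 3 C1q chains higher and Spp1 lower, against a background of 2.46% of genes called higher and 0.723% called lower in those 5 tumors. These 2 shares are the figures to set beside the 5-tumor counts of every gene list. IFN-γ tumor 3 was the lowest IFN-γ tumor for the C1q chains and the highest for Spp1, so leaving it out widens their group differences. Calls in 5 tumors, here and below, are therefore a description and no independent evidence of a difference. The median log2 fold change of the 9 genes was 0.44 in 6 tumors, beside 0.0015 for all genes tested, and 0.46 in 5 tumors. For 4 of the 9 genes every IFN-γ tumor lay above every control tumor, for 0 every IFN-γ tumor lay below, and for 5 the groups overlapped. Among all genes tested, 7.63% were separated upwards and 7.5% downwards in this way. Because the 9 genes were chosen with earlier results of these data known, these shares are no test of the set.

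**Figure D1:**
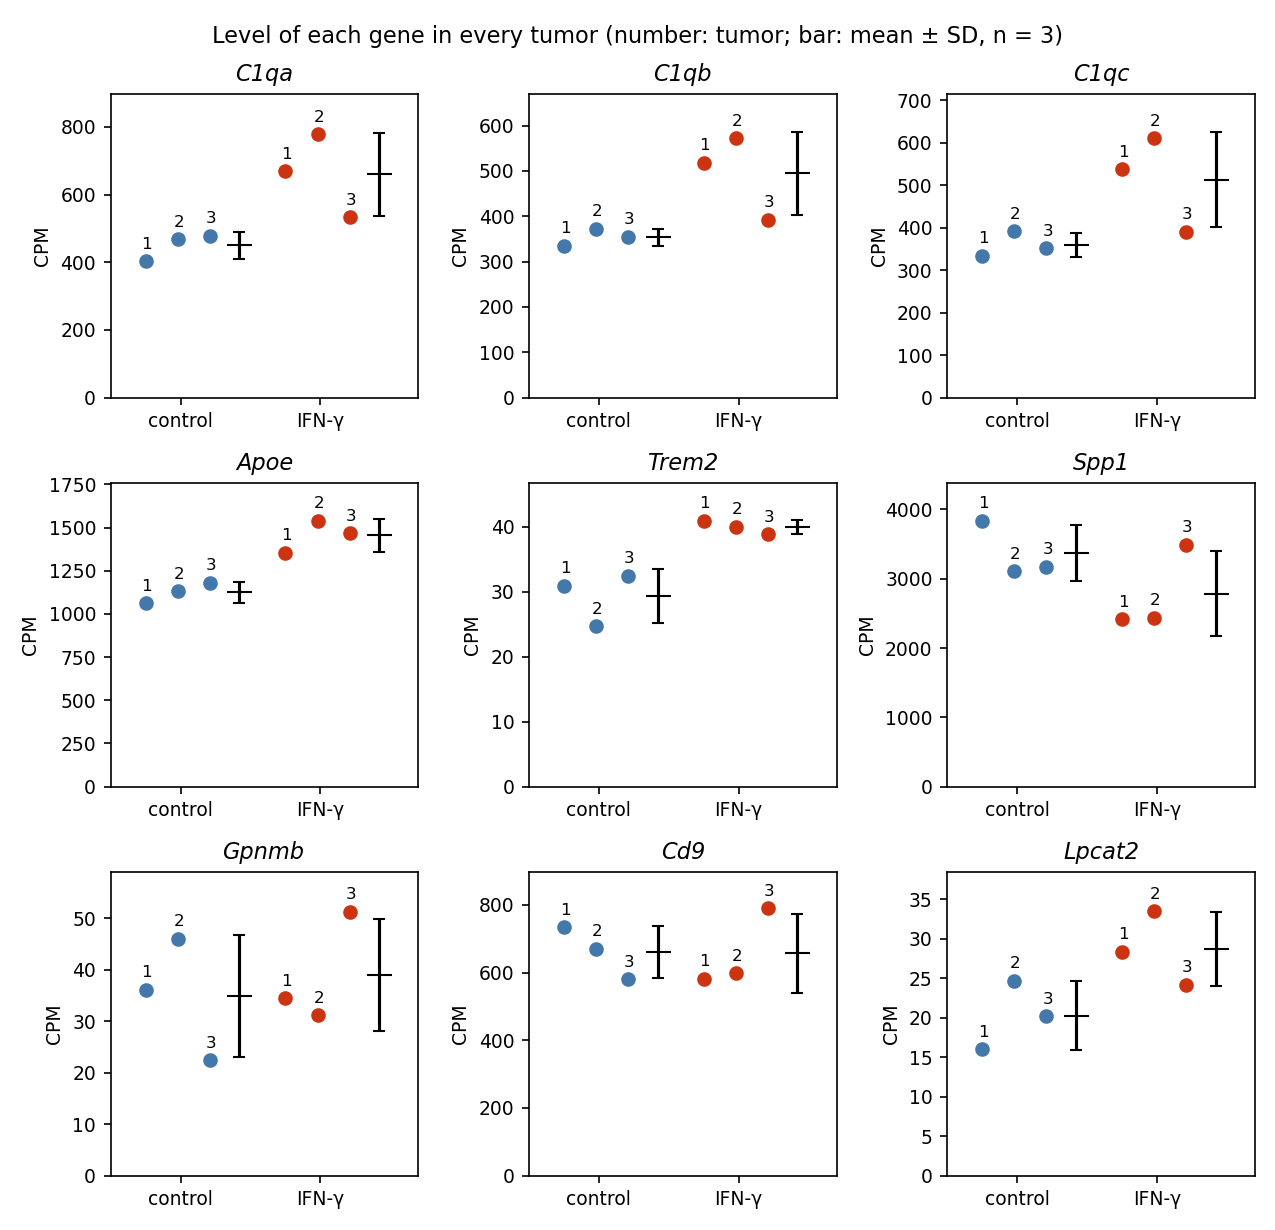
Level of each of the 9 genes in every tumor, in CPM on linear axes from 0, with the control tumors in blue, the IFN-γ tumors in red, the tumor number above each point and a bar for the mean ± SD of 3 tumors. C1qa, C1qb, Apoe and Trem2 do not overlap between the groups, and IFN-γ tumor 3 is the lowest IFN-γ tumor for the C1q chains and the highest for Spp1, Gpnmb and Cd9.

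The C1q chains come first. The 3 genes lie next to each other on mouse chromosome 4 in GRCm38, C1qa at chr4:136895917-136898803, minus strand, C1qc at chr4:136889804-136893065, minus strand, and C1qb at chr4:136880129-136886187, minus strand. C1qa, the A chain, measured 404, 467 and 478 CPM in control tumors 1, 2 and 3 and 669, 779 and 534 CPM in IFN-γ tumors 1, 2 and 3. All 3 IFN-γ tumors lay above all control tumors, tumor 3 the least far. The means were 449.7 ± 40.3 CPM in the control group and 661 ± 123 CPM in the IFN-γ group (mean ± SD, n = 3 each), and the log2 fold change was 0.55 (SE 0.14, adjusted p = 0.264) in edgeR. Without IFN-γ tumor 3 it was 0.68 (SE 0.10, adjusted p = 0.016).

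C1qb, the B chain, measured 335, 372 and 354 CPM in control tumors 1, 2 and 3 and 518, 572 and 393 CPM in IFN-γ tumors 1, 2 and 3. The groups did not overlap, but IFN-γ tumor 3 lay nearer to control tumor 2 than to the other IFN-γ tumors. The means were 354 ± 18.9 CPM in the control group and 494 ± 91.9 CPM in the IFN-γ group (mean ± SD, n = 3 each). The edgeR log2 fold change was 0.48 (SE 0.13, adjusted p = 0.299), and 0.61 (SE 0.083, adjusted p = 0.012) without IFN-γ tumor 3. C1qc, the C chain, measured 334, 391 and 351 CPM in control tumors 1, 2 and 3 and 537, 610.0 and 391 CPM in IFN-γ tumors 1, 2 and 3. Here IFN-γ tumor 3, at 390.8 CPM, lay just under control tumor 2, at 391.0 CPM, so the groups overlapped. The means were 359 ± 29.0 CPM in the control group and 513 ± 112 CPM in the IFN-γ group (mean ± SD, n = 3 each). The edgeR log2 fold change was 0.51 (SE 0.15, adjusted p = 0.339), and 0.67 (SE 0.095, adjusted p = 0.014) without that tumor.

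The 3 chains kept nearly the same proportions in every tumor. Per kilobase of the longest coding transcript, the level ratio of C1qa to C1qb lay between 1.26 and 1.43, that of C1qa to C1qc between 1.38 and 1.58, and that of C1qb to C1qc between 1.04 and 1.11. Control tumor 1 had the lowest and IFN-γ tumor 2 the highest level of each chain. By contrast, the level ratio of Spp1 to C1qa, per kilobase of exon, was 5.99, 4.20 and 4.19 in the control tumors and 2.28, 1.98 and 4.13 in the IFN-γ tumors.

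Because the chains kept their proportions, their upstream sequences are shown beside those of Spp1, which had the opposite sign, and of Trem2. RefSeq start-site windows for GRCm38.p6 were matched for 8 of the 9 genes, C1qa being the one without an entry. The C1qb window runs chr4:136886201-136886450, minus strand, and the part of the C1qc window outside annotated exons runs chr4:136893066-136893164, minus strand. The Spp1 window is chr5:104434861-104435110, plus strand, and the Trem2 window is chr17:48346151-48346400, plus strand. All are written 5′ to 3′ on the strand of the gene, and capitals mark each match to a searched motif on either strand (TTCCTC is GAGGAA, and CACATG is CATGTG, read from the other strand).
C1qb: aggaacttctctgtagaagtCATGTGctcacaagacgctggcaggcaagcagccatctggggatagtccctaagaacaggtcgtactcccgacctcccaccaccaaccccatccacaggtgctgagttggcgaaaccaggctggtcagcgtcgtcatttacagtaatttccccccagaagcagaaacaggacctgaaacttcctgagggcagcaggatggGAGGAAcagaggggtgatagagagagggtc
C1qc: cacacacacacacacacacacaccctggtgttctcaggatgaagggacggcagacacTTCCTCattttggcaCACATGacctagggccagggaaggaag
Spp1: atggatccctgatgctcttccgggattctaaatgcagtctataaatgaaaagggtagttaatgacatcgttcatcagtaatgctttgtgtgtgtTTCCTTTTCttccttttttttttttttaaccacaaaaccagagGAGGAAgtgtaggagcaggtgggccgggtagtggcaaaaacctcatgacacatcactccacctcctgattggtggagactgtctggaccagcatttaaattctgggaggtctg
Trem2: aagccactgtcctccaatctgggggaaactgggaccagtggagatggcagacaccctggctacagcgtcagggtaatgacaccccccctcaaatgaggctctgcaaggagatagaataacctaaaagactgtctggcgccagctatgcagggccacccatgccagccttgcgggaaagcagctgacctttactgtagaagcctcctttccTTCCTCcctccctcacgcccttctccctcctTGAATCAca
No matches in these windows overlap. The motifs, searched on both strands of the 250 bases before each start site, were the core of the interferon-stimulated response element (GAAANNGAA), the core bound by PU.1, the factor that defines the myeloid lineage (GAGGAA), the E-boxes CACGTG and CATGTG that MiT/TFE factors bind, and AP-1 (TGANTCA). The windows of C1qb and C1qc each held 1 GAGGAA and 1 CATGTG, on opposite strands in the 2 genes. That of Spp1 held 1 interferon-response core on the minus strand and 1 GAGGAA, and that of Trem2 1 GAGGAA on the minus strand and 1 AP-1 match. The interferon-response core was found in 3 of the 11 windows of the 8 genes and in 7.13% of the 32851 promoters searched, GAGGAA in 6 of 11 and 23.3%, CATGTG in 3 of 11 and 12.3%, AP-1 in 1 of 11 and 6.75%, and CACGTG in 0 of 11 and 6.02%. Apoe and Spp1 gave more than 1 window each, some Apoe windows share bases, and GAGGAA was counted in more than 1 Apoe window. The 11 windows are thus not independent, and the shares are no test. All motif matches are letter matches and say nothing about binding.

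Among the lipid-associated genes, Apoe, the apolipoprotein that carries cholesterol out of macrophages, lies at chr7:19696109-19699188, minus strand. It measured 1062, 1133 and 1181 CPM in control tumors 1, 2 and 3 and 1355, 1540.3 and 1469 CPM in IFN-γ tumors 1, 2 and 3. All 3 IFN-γ tumors were above all control tumors, and IFN-γ tumor 3 was the second highest. The means were 1125 ± 60.2 CPM in the control group and 1455 ± 93.7 CPM in the IFN-γ group (mean ± SD, n = 3 each). The log2 fold change was 0.37 (SE 0.082, adjusted p = 0.222) in edgeR, the smallest p of the 9 genes, and 0.35 (SE 0.087, adjusted p = 0.072) without IFN-γ tumor 3. DESeq2 gave it an adjusted p of 0.0047. Adipocyte markers also separated the groups: 7 of 8 lay higher in all IFN-γ tumors, beside 7.63% of all genes tested. Their summed levels were 113, 112 and 152 CPM in the control tumors and 158, 213 and 183 CPM in the IFN-γ tumors. By edgeR 0 of 8 passed in 6 tumors (7 at an unadjusted p under 0.05, 6 by DESeq2 and 0 by limma-voom) and 4 of 8 in 5 tumors. The median log2 fold change of the 8 adipocyte markers was 2.17 in 6 tumors. That median weighs all 8 alike, whereas the sums weigh most the most abundant of them, Fabp4 and Cfd. The part of the adipocyte markers in the Apoe level was not tested.

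Trem2, the lipid-sensing receptor that marks these macrophages, lies at chr17:48346401-48354147, plus strand. It measured 30.9, 24.7 and 32.5 CPM in control tumors 1, 2 and 3 and 40.9, 40 and 38.8 CPM in IFN-γ tumors 1, 2 and 3. The IFN-γ tumors lay close together and above all control tumors. The means were 29.3 ± 4.13 CPM in the control group and 39.9 ± 1.04 CPM in the IFN-γ group (mean ± SD, n = 3 each). The log2 fold change was 0.44 (SE 0.11, adjusted p = 0.268) in edgeR, and 0.46 (SE 0.12, adjusted p = 0.097) without IFN-γ tumor 3, so Trem2 missed the threshold in both. Apoe and Trem2 thus differed from the C1q chains in IFN-γ tumor 3, whose log2 ratio to the control mean was 0.38 for Apoe and 0.40 for Trem2 but 0.25, 0.15 and 0.12 for C1qa, C1qb and C1qc. This difference between genes was not tested.

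Spp1 encodes osteopontin, a secreted matrix protein and integrin ligand, at chr5:104435118-104441050, plus strand. It measured 3834, 3111 and 3176 CPM in control tumors 1, 2 and 3 and 2413, 2439 and 3490.4 CPM in IFN-γ tumors 1, 2 and 3. IFN-γ tumors 1 and 2 were the 2 lowest of the 6, and IFN-γ tumor 3 was the second highest, behind control tumor 1. The means were 3374 ± 400.2 CPM in the control group and 2781 ± 615 CPM in the IFN-γ group (mean ± SD, n = 3 each). The log2 fold change was -0.28 (SE 0.16, adjusted p = 0.595) in edgeR with all 6 tumors. Without IFN-γ tumor 3 Spp1 fell, with a log2 fold change of -0.48 (SE 0.10, adjusted p = 0.046). A noncoding gene on the same strand, Gm42793, shares 309 exon bases with Spp1 and had 21 to 55 counts. How reads in the shared bases were counted is not given in the sources used here.

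Gpnmb, a transmembrane glycoprotein of lysosome-stressed macrophages that MiT/TFE factors induce, lies at chr6:49036546-49070929, plus strand. It measured 36.2, 46.1 and 22.4 CPM in control tumors 1, 2 and 3 and 34.4, 31.2 and 51.3 CPM in IFN-γ tumors 1, 2 and 3. The lowest tumor was a control and the highest was IFN-γ tumor 3, and the groups overlapped. The means were 34.9 ± 11.9 CPM in the control group and 39.0 ± 10.8 CPM in the IFN-γ group (mean ± SD, n = 3 each), the log2 fold change was 0.16 (SE 0.27, adjusted p = 0.886) in edgeR, and it turned to -0.097 (SE 0.25, adjusted p = 0.900) without IFN-γ tumor 3 and to -0.085 without control tumor 3. Melanocytes also express Gpnmb, and their 6 markers summed to 0.571 to 0.999 CPM in the control tumors and 0.494 to 0.754 CPM in the IFN-γ tumors, with Tyr at 0 in all 6. Osteoclast markers, of the other cell type rich in Gpnmb and Spp1, summed to 81.4 to 121 CPM in the control tumors and 59.7 to 93.7 CPM in the IFN-γ tumors. Most of that sum came from Nfatc1, Acp5 and Ctsk, which other cells also express. Of the 7 markers, 3 passed the filter on low counts, and their part in the Gpnmb and Spp1 levels was not tested.

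Cd9, a tetraspanin of the cell surface, lies at chr6:125460266-125494791, minus strand. It measured 734, 670.0 and 581 CPM in control tumors 1, 2 and 3 and 582, 598 and 789.8 CPM in IFN-γ tumors 1, 2 and 3. Control tumor 3 and IFN-γ tumor 1 had nearly equal low levels, and IFN-γ tumor 3 was the highest. The means were 662 ± 76.7 CPM in the control group and 657 ± 116 CPM in the IFN-γ group (mean ± SD, n = 3 each). The log2 fold change was -0.011 (SE 0.14, adjusted p = 0.993) in edgeR, and -0.17 (SE 0.10, adjusted p = 0.475) without IFN-γ tumor 3. Platelets carry much Cd9, and 6 platelet and megakaryocyte markers summed to 24.7 to 31.8 CPM in the control tumors and 19.5 to 27.2 CPM in the IFN-γ tumors, with Gp6 at 0.

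Lpcat2, the enzyme that makes platelet-activating factor and remodels phosphatidylcholine, lies at chr8:92855339-92919279, plus strand. It measured 16, 24.7 and 20.1 CPM in control tumors 1, 2 and 3 and 28.3, 33.5 and 24.1 CPM in IFN-γ tumors 1, 2 and 3. IFN-γ tumors 1 and 2 were the highest, and IFN-γ tumor 3 lay just under control tumor 2. The means were 20.3 ± 4.34 CPM in the control group and 28.7 ± 4.68 CPM in the IFN-γ group (mean ± SD, n = 3 each). The log2 fold change was 0.50 (SE 0.18, adjusted p = 0.393) in edgeR, and 0.60 (SE 0.17, adjusted p = 0.118) without IFN-γ tumor 3.

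**Figure D2:**
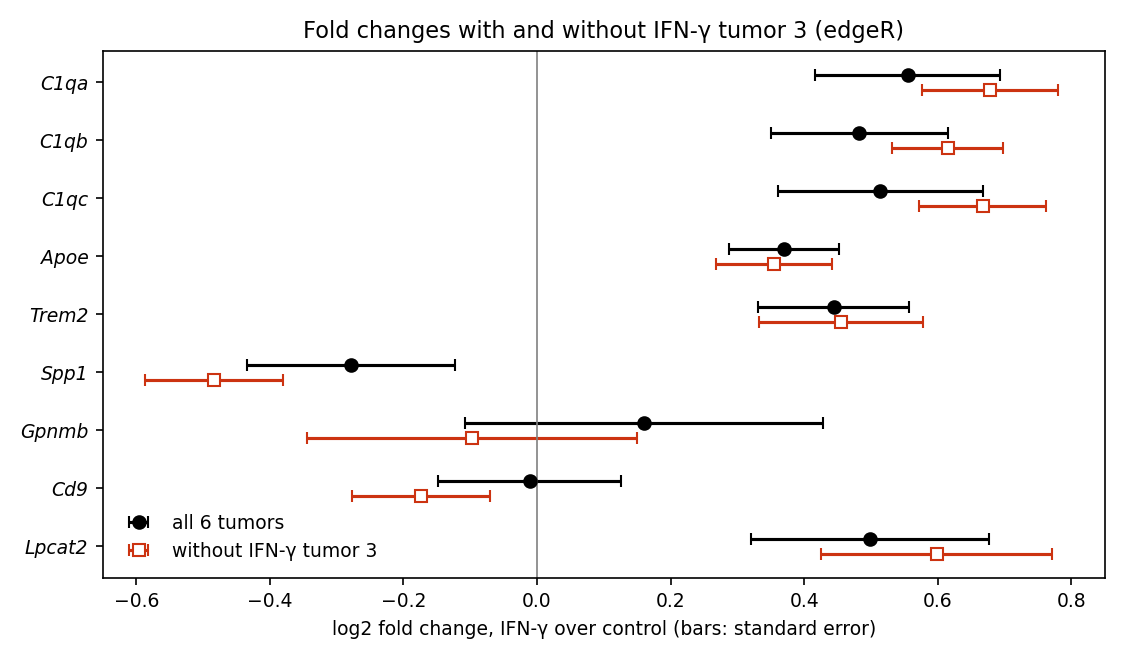
Log2 fold change of IFN-γ over control for each gene from edgeR, with bars of 1 standard error, in all 6 tumors (black circles) and without IFN-γ tumor 3 (open red squares). The values of C1qa, C1qb and C1qc are 0.55, 0.48 and 0.51 with all tumors and 0.68, 0.61 and 0.67 without that tumor, those of Spp1 -0.28 and -0.48, those of Apoe 0.37 and 0.35, and those of Trem2 0.44 and 0.46.

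Compared per length, Spp1 was by far the most abundant of the 9 genes. Its mean level over the 6 tumors was 5455 TPM (a level divided by the length of all exons of the gene), rank 12 among all genes, followed by Apoe at 1756 TPM and C1qa at 1555 TPM. C1qb stood at 1137 TPM, Cd9 at 941 TPM and C1qc at 659 TPM. Lpcat2, Trem2 and Gpnmb were much lower, at 21.1, 20.4 and 16.6 TPM, and their order depended on the length used. By the longest coding transcript, an alternative chosen after seeing the data, Spp1 and Apoe kept first and second place at 4398 and 1966 TPM, Cd9 at 1155 TPM stood beside C1qa at 1147 TPM, and Trem2 stood at 68.3 TPM.

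A set of general macrophage genes was measured as a reference. Their summed RNA is not a count of cells, and some of them, such as Fcgr1 and Mpeg1, can be raised by interferon. The 11 macrophage identity genes, which include the lineage receptor Csf1r, the surface antigen Adgre1 (F4/80) and lysozyme Lyz2, summed to 2652, 3091 and 3316 CPM in the control tumors and 4491, 5382 and 3004 CPM in the IFN-γ tumors. IFN-γ tumors 1 and 2 were the 2 highest, and IFN-γ tumor 3 lay within the control range. In 6 tumors 0 of the 11 passed the edgeR test (6 at an unadjusted p under 0.05, 0 by DESeq2 and 0 by limma-voom), with a median log2 fold change of 0.36. Without IFN-γ tumor 3, 7 of 11 were called higher, beside 2.46% of all genes tested in those 5 tumors. The most abundant of them were Lyz2, at 1590.5, 1811 and 2165 CPM in the control tumors and 2579, 3459 and 1853 CPM in the IFN-γ tumors (0.50 log2 fold change, adjusted p = 0.470), and Mpeg1, which encodes the pore-forming protein perforin-2, at 257, 344 and 291 CPM in the control tumors and 709.7, 656 and 338 CPM in the IFN-γ tumors (0.93, adjusted p = 0.290). Without IFN-γ tumor 3 Lyz2 rose by 0.69 and Mpeg1 by 1.19 on the log2 scale (edgeR adjusted p = 0.047 and 0.0075).

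Each gene was next set against the mean log2 level of these 11 genes in the same tumor, as a description with no test. That mean was itself 0.37 higher in the IFN-γ group than in the control group. For the C1q chains the log2 difference between groups was 0.17 for C1qa, 0.090 for C1qb and 0.12 for C1qc. Without IFN-γ tumor 3 it was 0.10, 0.037 and 0.091. With a planned smaller reference of 3 of these genes, Csf1r and Adgre1 among them, it was 0.24, 0.16 and 0.19 in all 6 tumors. C1qa lay at 1.98, 1.98 and 2.06 in the control tumors and 2.04, 2.18 and 2.30 in the IFN-γ tumors. C1qc was the single gene of the 9 whose relative level did not overlap between the groups, and only narrowly. Its lowest IFN-γ value was 1.726 in tumor 1, and its highest control value was 1.724 in tumor 2. The share of all genes separated on this scale was not computed. Spp1 departed from the identity genes, with relative levels of 5.23, 4.72 and 4.79 in the control tumors and 3.89, 3.82 and 5.01 in the IFN-γ tumors. The group difference was -0.67, and -1.05 without IFN-γ tumor 3. IFN-γ tumors 1 and 2 stood under all controls, whose mean was 4.91, and IFN-γ tumor 3 stood within the control range. Cd9 had a similar arrangement, at 2.84, 2.50 and 2.34 in the control tumors and 1.84, 1.80 and 2.87 in the IFN-γ tumors. Its level in IFN-γ tumor 3 was just above the highest control, and its group difference was -0.39, or -0.74 without that tumor. The edgeR log2 fold changes of Spp1 and Cd9 themselves were -0.28 and -0.011 in all 6 tumors. Their lower relative levels thus also hold the higher level of the reference. For Apoe, Trem2, Gpnmb and Lpcat2 the group differences were -0.0054, 0.072, -0.19 and 0.12, and -0.22, -0.12, -0.61 and 0.029 without IFN-γ tumor 3, so that Trem2 turned sign. These differences were small against single tumors: Trem2 was at -0.090 without control tumor 2, Gpnmb at 0.077 without IFN-γ tumor 2, and Apoe at 0.13 without IFN-γ tumor 1. On this scale IFN-γ tumor 3 was the highest of the 6 tumors for 8 of the 9 genes, all but Spp1.

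**Figure D3:**
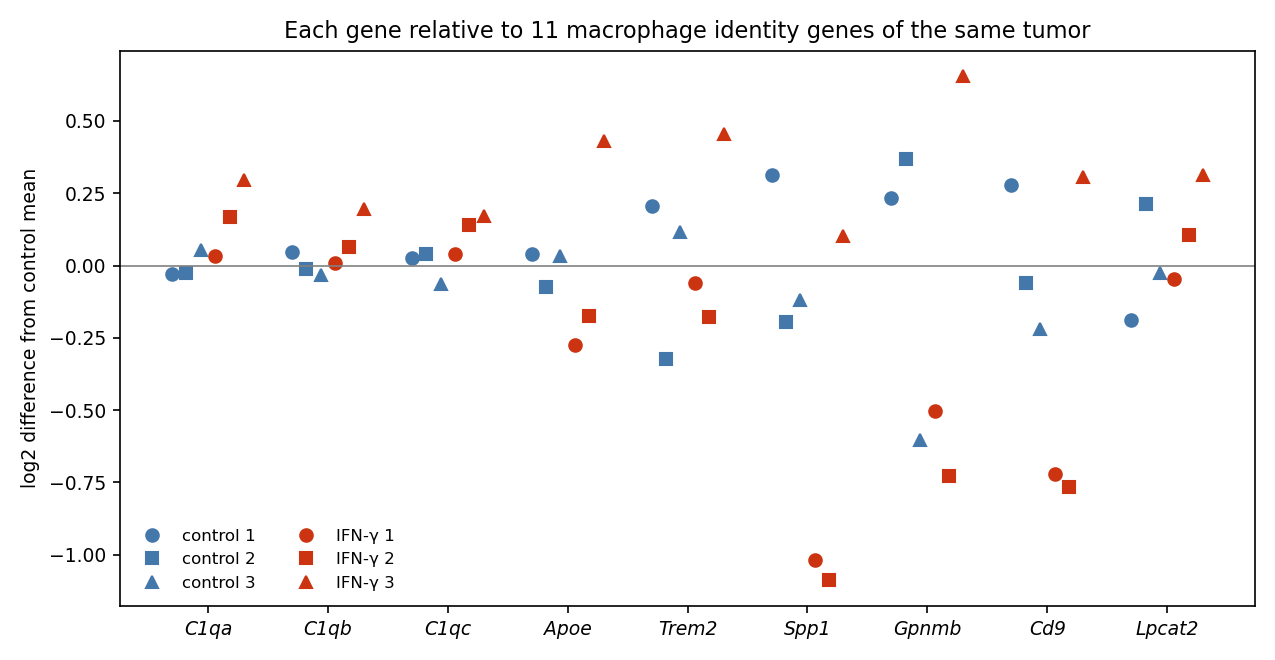
Log2 level of each gene minus the mean log2 level of 11 macrophage identity genes of the same tumor, plotted as the difference from the control mean, with 1 symbol per tumor. In IFN-γ tumors 1 and 2 the C1q chains lie nearer to the control mean than Spp1, which is far lower there (relative levels 3.89 and 3.82). In IFN-γ tumor 3 Spp1 lies near the controls (5.01), and C1qa (2.30) lies above its control mean of 2.01.

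The next step in the complement cascade was measured through 9 tested genes of the classical pathway. Of these, 2 passed the edgeR test in 6 tumors, both higher, and their products are the proteases that dock onto C1q to form the C1 complex. C1s1, the C1s protease, measured 184, 226 and 212 CPM in the control tumors and 383, 407 and 337 CPM in the IFN-γ tumors, with no overlap and a log2 fold change of 0.86 (SE 0.10, adjusted p = 0.041). C1ra, the C1r protease that activates it, measured 90.8, 113 and 103 CPM in the control tumors and 181, 199 and 161 CPM in the IFN-γ tumors, again with no overlap and a log2 fold change of 0.81 (SE 0.11, adjusted p = 0.049). Both kept their sign in all 14 alternatives, but both calls were lost when any one of the tumors other than IFN-γ tumor 3 was left out, with edgeR adjusted p of 0.12 to 0.24 there. DESeq2 called both, and limma-voom called C1s1 but not C1ra. Each has a near-identical mouse paralog, C1s2 and C1rb, and reads shared between copies may have been split by the counting. C1s2 had a log2 fold change of 0.72 (adjusted p = 0.225, and 0.030 without IFN-γ tumor 3), and C1rb one of 0.19 (adjusted p = 0.874).

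IFN-γ tumor 3 thus lay above the controls for both proteases, as it did for C1qa and C1qb, but not for the later components. C3, the central component, measured 186, 339 and 338 CPM in the control tumors and 489.6, 749 and 208 CPM in the IFN-γ tumors, with IFN-γ tumor 3 inside the control range (log2 fold change 0.74, adjusted p = 0.593). C4b had a log2 fold change of 0.55 (adjusted p = 0.558). Serping1, the inhibitor of C1r and C1s, had one of 0.49 (adjusted p = 0.491), and it passed in 5 tumors at 0.72 (adjusted p = 0.022). Over the list the median log2 fold change was 0.55 in 6 tumors. In 5 tumors, 4 of the 9 were called higher. DESeq2 called 3 of the 9 and limma-voom 1 in 6 tumors. C4bp was at 0 in all 6 tumors. Fibroblasts, a main source of C1r and C1s, had 8 markers summing to 3453 to 5350.4 CPM in the control tumors and 3453 to 5368 CPM in the IFN-γ tumors, and 0 of 8 passed (0 at an unadjusted p under 0.05, 0 by DESeq2 and 0 by limma-voom). The part of fibroblasts in the C1ra and C1s1 levels was not tested.

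**Figure D4:**
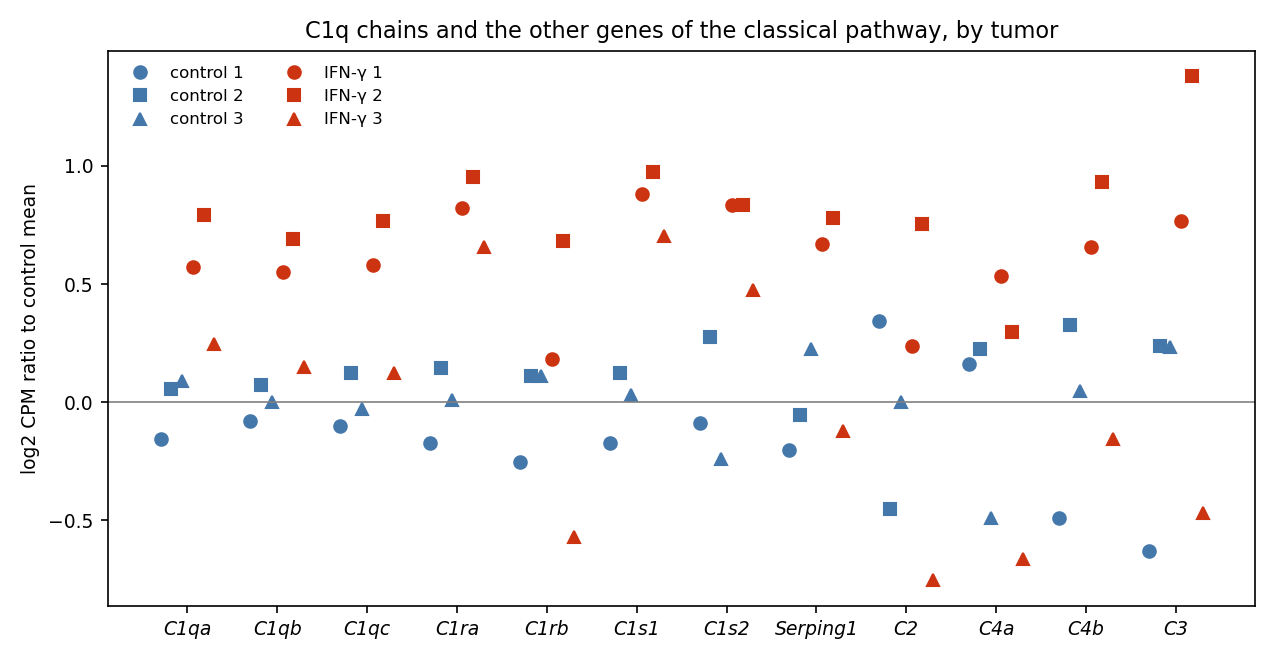
Log2 ratio of the CPM of each tumor to the control mean for the C1q chains and 9 further genes of the classical complement pathway, with 1 symbol per tumor. C1qa, C1qb, C1ra, C1s1 and C1s2 have every IFN-γ tumor above every control tumor, while IFN-γ tumor 3 falls among or under the controls for C1rb, Serping1, C2, C4a, C4b and C3.

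Of 8 tested receptors and binding partners of C1q, 0 passed edgeR in 6 tumors (1 at an unadjusted p under 0.05, 1 by DESeq2 and 0 by limma-voom) and the median log2 fold change was 0.012. The most abundant were Calr, the chaperone that binds the C1q tails, with a log2 fold change of 0.0092 (edgeR adjusted p = 0.990), and Lrp1, the endocytic receptor, with one of -0.016 (adjusted p = 0.985). Lair1, an inhibitory receptor of myeloid cells that binds C1q, measured 30.9, 45.6 and 41.4 CPM in the control tumors and 81.5, 82.5 and 45.6 CPM in the IFN-γ tumors. Its log2 fold change was 0.83 (SE 0.23, adjusted p = 0.309), and 1.05 (SE 0.14, adjusted p = 0.012) without IFN-γ tumor 3, where it was the only receptor of the 8 to pass.

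Of 10 genes of Trem2 signalling, 0 passed edgeR in 6 tumors (4 at an unadjusted p under 0.05, 1 by DESeq2 and 0 by limma-voom), with a median log2 fold change of 0.28, and 4 were higher without IFN-γ tumor 3 (Tyrobp, Plcg2, Ms4a7 and Grn, with log2 fold changes of 0.68, 0.72, 0.86 and 0.44 and edgeR adjusted p of 0.017, 0.045, 0.0037 and 0.042). Tyrobp, the adaptor DAP12 through which Trem2 signals, measured 94.0, 91.4 and 109 CPM in the control tumors and 145, 172 and 109 CPM in the IFN-γ tumors. It lay at the control level in IFN-γ tumor 3, where Trem2 did not, and its log2 fold change was 0.53 (SE 0.16, adjusted p = 0.330). Ms4a7, a tetraspan protein of macrophages, measured 72.9, 69.2 and 65.1 CPM in the control tumors and 128, 124 and 86.1 CPM in the IFN-γ tumors. Its groups did not overlap, and its log2 fold change was 0.71 (SE 0.14, adjusted p = 0.193). Grn, progranulin, the most abundant of the list, had a log2 fold change of 0.31 (adjusted p = 0.472). Adam10, the protease that sheds Trem2, had one of -0.037 (adjusted p = 0.908).

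Of 12 tested genes for Apoe receptors and lipid efflux, 0 passed edgeR in 6 tumors (2 at an unadjusted p under 0.05, 0 by DESeq2 and 0 by limma-voom). The median log2 fold change was 0.073, and 2 were higher in 5 tumors. Those were Abcg1, a cholesterol exporter, and Nr1h3, the oxysterol receptor LXRα, at 0.82 and 1.01 on the log2 scale (edgeR adjusted p = 0.0096 and 0.025). Apoc1, a neighbour of Apoe in the same gene cluster, measured 0.562, 0.225 and 0.399 CPM in the control tumors and 1.33, 1.16 and 1.54 CPM in the IFN-γ tumors. It did not overlap between groups but was near the counting floor, with a log2 fold change of 1.76 (SE 0.40, adjusted p = 0.225). Apoc2 was at 0 in all tumors.

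Of 8 receptors of osteopontin, 0 passed edgeR in 6 tumors (2 at an unadjusted p under 0.05, 2 by DESeq2 and 0 by limma-voom), and the median log2 fold change was -0.071. Cd44, the adhesion receptor that binds osteopontin, measured 575, 553 and 549 CPM in the control tumors and 402, 419 and 458 CPM in the IFN-γ tumors, and every IFN-γ tumor lay under every control tumor. Its log2 fold change was -0.39 (SE 0.077, adjusted p = 0.168). Without IFN-γ tumor 3 Cd44 fell, with a log2 fold change of -0.45 (SE 0.074, adjusted p = 0.020), and Itga4, an integrin chain of leukocytes, rose, with one of 0.85 (SE 0.15, adjusted p = 0.024). Itgb1, the most abundant integrin chain of the list, had a log2 fold change of 0.060 (adjusted p = 0.859) in 6 tumors.

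The partners of Gpnmb, Cd9 and Lpcat2 were counted in the same way. Of 10 MiT/TFE factors and lysosomal partners of Gpnmb, 0 passed edgeR in 6 tumors (3 at an unadjusted p under 0.05, 2 by DESeq2 and 0 by limma-voom), with a median of -0.036. Mitf itself had a log2 fold change of -0.069 (edgeR adjusted p = 0.872), and the lysosomal proton pump subunit Atp6v0d2 had -1.22 (adjusted p = 0.422). Atp6v0d2 was low, at 4.12, 1.75 and 1.66 CPM in the control tumors and 0.869, 1.59 and 0.741 CPM in the IFN-γ tumors. Control tumor 1 stood well above the other controls. Without IFN-γ tumor 3, Cd44 was called lower and Lamp2, a lysosomal membrane protein, higher at 0.33 (adjusted p = 0.049). Of 8 tetraspanin partners of Cd9, 0 passed edgeR (1 at an unadjusted p under 0.05, 0 by DESeq2 and 0 by limma-voom), with a median of 0.18, and the most abundant were Cd63 and Cd81 with log2 fold changes of 0.26 and -0.042. Without that tumor the leukocyte tetraspanin Cd53 was called higher, at 0.56 (adjusted p = 0.033). Of 10 genes of phospholipid remodelling beside Lpcat2, 0 passed edgeR (2 at an unadjusted p under 0.05, 1 by DESeq2 and 0 by limma-voom), with a median of -0.036. Within that group, Pla2g7, which degrades platelet-activating factor, measured 246, 222 and 254 CPM in the control tumors and 298, 281 and 335 CPM in the IFN-γ tumors, higher in every IFN-γ tumor, with a log2 fold change of 0.34 (SE 0.092, adjusted p = 0.297). Alox5, the lipoxygenase that starts leukotriene synthesis, measured 12.9, 12.4 and 13.5 CPM in the control tumors and 7.07, 9.58 and 6.79 CPM in the IFN-γ tumors, lower in every IFN-γ tumor, with a log2 fold change of -0.73 (SE 0.17, adjusted p = 0.233). Neither passed in 5 tumors.

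Other genes of the lipid-associated state were measured beside the 9. Of 24 tested, 0 passed edgeR in 6 tumors (3 at an unadjusted p under 0.05, 1 by DESeq2 and 0 by limma-voom), with a median log2 fold change of 0.13, and 4 were higher without IFN-γ tumor 3 (Lpl, Clec7a, Lipa and Ch25h, with log2 fold changes of 1.16, 1.13, 0.46 and 0.83 and edgeR adjusted p of 0.027, 0.025, 0.020 and 0.036). Lpl, lipoprotein lipase, measured 19.1, 16 and 26.9 CPM in the control tumors and 38.8, 54.1 and 26.5 CPM in the IFN-γ tumors. It had a log2 fold change of 0.94 (SE 0.27, adjusted p = 0.315) in edgeR. Clec7a, the receptor dectin-1, measured 12.5, 18.3 and 19.0 CPM in the control tumors and 30.3, 42.8 and 18.4 CPM in the IFN-γ tumors, with a log2 fold change of 0.88 (SE 0.29, adjusted p = 0.371). Both were highest in IFN-γ tumors 1 and 2. Vim and Lgals1, which many mesenchymal cells express, were the most abundant of the list, with log2 fold changes of 0.12 and 0.11. Of 12 genes of resident-like macrophages, the state with which C1q is also associated, 0 passed edgeR in 6 tumors (4 at an unadjusted p under 0.05, 0 by DESeq2 and 0 by limma-voom) or in 5, and the median in 6 was -0.072. Selenop and Mrc1, the most abundant, had log2 fold changes of 0.21 and -0.22 (adjusted p = 0.770 and 0.437). The iron exporter Slc40a1 and the hyaluronan receptor Lyve1 had -1.22 and -0.98 (adjusted p = 0.392 and 0.571).

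The genes whose profile over the 6 tumors lay nearest to the mean of the C1q chains, by root mean square difference of centred log2 values, were H2-T22 (0.044), Ube2l6 (0.046), Olfml3 (0.046), H2-T10 (0.055) and Ptger2 (0.059). H2-T22 and H2-T10 are nonclassical class I genes with similar sequences, Ube2l6 is the conjugating enzyme for ISG15, and Ptger2 is a prostaglandin E2 receptor. Ube2l6 measured 144, 152 and 159 CPM in the control tumors and 230.1, 248 and 169 CPM in the IFN-γ tumors. For the mean of Trem2 and Gpnmb the nearest were Sertad3 (0.047), Mepce (0.058), Ddr1 (0.062), Rnpc3 (0.063) and Nprl2 (0.072). Trem2 and Gpnmb differed in their own order of tumors, so this mean need not stand for either gene. With 6 tumors and 15114 genes, these lists are a description.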

How the data were processed

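Bulk RNA-seq of 3 control and 3 IFN-γ tumors was analysed from whole-number counts per gene, which the authors had deposited in 1 table, every sample column being used. The submitters' processing notes name the aligner HISAT2 and the build mm10. Versions, counting tool and strand setting are not given in the sources used here. Counts were tested with edgeR 4.0.16 (TMM factors, filterByExpr, quasi-likelihood F test, Benjamini-Hochberg over all genes tested, threshold 0.05) in R 4.3.3, after the fit was tested on simulated data. DESeq2 1.42.0, limma 3.58.1 (voom), other scalings and filters, a replicate block and leaving out each tumor were alternatives. Standard errors are the log2 fold change over the square root of F. TPM used GENCODE M21 exon lengths (99.5% of identifiers matched), relative levels a pseudocount of 0.5 CPM. Total counts of 15759300 to 17559680 set a floor of 3 counts. The members and gene lists were chosen with earlier results of these data known. Genes named in the text were taken from the 9 members, list genes that passed, the 2 most abundant of each list, the 2 largest changes of each pathway list and the 5 nearest profiles. Those outside this rule (C1s2, C1rb, C2, C4a, C4b, Serping1, Tyrobp, Plcg2, Abcg1, Lipa, Ch25h, Mitf, Lamp2, Csf1r, Adgre1, Fcgr1, Ctsk and genes at 0) were chosen after their values were seen. A gene of the lipid efflux list and a searched motif are not reported here.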

Additional observations from a re-analysis of the deposited data

How the results depend on the processing

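Of 126 alternative values for the log2 fold changes of the 9 genes, 111 kept their sign and side of the threshold, 10 passed the threshold newly and 5 turned sign. Leaving out 1 tumor moved Gpnmb between -0.097 and 0.41 and Cd9 between -0.17 and 0.071; Gpnmb was below 0 without control tumor 3 (-0.085) or IFN-γ tumor 3 (-0.097), and Cd9 above 0 without control tumor 1 (0.071), IFN-γ tumor 1 (0.070) or IFN-γ tumor 2 (0.050). Trem2, Lpcat2, Gpnmb and Cd9 passed under no alternative. Genes called higher and lower numbered 12 and 5 in the edgeR fit, 150 and 70 with no filter on low counts, 125 and 71 with DESeq2, and 4 to 381 and 2 to 112 when 1 tumor was left out, the upper ends being those without IFN-γ tumor 3. With library size only, 7 were higher, and limma-voom called 3 lower. Of the 9 genes, 3 were called higher with no filter and with DESeq2, and 0 to 3 higher and 0 to 1 lower when 1 tumor was left out. A replicate block in the fit left 5 genes higher and 2 lower, and 0 of the 9. Deviations of equally numbered tumors correlated at -0.24, -0.0047 and -0.22. These 3 values gave no sign that the numbers pair the tumors, but so few values cannot settle it. C1ra and C1s1 also lost their calls under the block (edgeR adjusted p = 0.17 for both) and with library size only (0.072 and 0.052), and C1ra with upper-quartile factors (0.056), a minimum of 1 CPM in 3 tumors (0.052) and limma-voom (0.054). The cause of these shifts was not tested. All 9 genes lay far above 3 counts in each tumor.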
